A study of Homo sapiens with 4 samples.

Results

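The genes described here are 42 interferon-stimulated genes and regulators of the interferon response, measured in UM-UC-3 cells, a human line established from a bladder cancer. The set is a list of gene names drawn up with earlier results of these data known. A gene counts where the platform annotation gives its symbol as the one gene of a probe set, and the probe set with the highest mean over the 4 arrays stands for it. Of the 42 genes, 41 were found, with 72 single-gene probe sets among them, out of 19775 genes named on the array. DDX58, the gene of the RNA sensor RIG-I, is listed under its newer symbol RIGI. STAT2 was not analysed here. The series set cells carrying GFP fused to RhoGDI2, the protein of ARHGDIB, beside control cells carrying GFP alone, with 2 arrays in each group. Per the labels, both lines are stable transfectants sorted by fluorescence for GFP or the fusion protein, and were grown to log phase; the GFP line also received pBABE PURO, a plasmid for puromycin selection. Preparations A and B are biological replicates made at different times, and each holds 1 array of either group. The description label of the GFP-RhoGDI2 samples tells of the control transfection, while their title, source, growth protocol and characteristics all name the fusion. Each group is a single transfected population sampled in 2 preparations, so a difference that came with making a line and one due to the introduced gene cannot be told apart. P-values rest on how the difference varied between the preparations, joined with a typical spread that limma estimates over all probe sets, which carries most of the weight. They do not cover the spread between independently made lines.

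Type I interferons bind the receptor subunits IFNAR1 and IFNAR2, whose kinases JAK1 and TYK2 phosphorylate STAT2. STAT2 and IRF9 are parts of the factor ISGF3, which binds a promoter motif called the interferon-stimulated response element (ISRE) and switches on the interferon-stimulated genes. Many of those genes encode antiviral proteins, others encode sensors of viral RNA or inhibitors that end the response, and some are also transcribed at a low basal rate without added interferon. The labels name no interferon treatment or infection.

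Values are log2 RMA expression, a scale on which 1 unit is a doubling of the measured level. A gene entered the test when its mean over the 4 arrays reached the median of all probe sets, 4.637, and 28 of the 41 genes did. Differences are GFP-RhoGDI2 minus GFP from limma with preparation as a block, and a gene is called where its adjusted p, over all 27307 probe sets tested, is under 0.05. The introduced gene was read first, as a check on the labels. ARHGDIB read 6.51 and 6.27 in GFP cells and 11.94 and 11.58 in GFP-RhoGDI2 cells, where each such couple of values gives preparation A first. Another ARHGDIB probe set differed by 0.94 (adjusted p = 0.00794) and the last by -0.02 (adjusted p = 0.953). Which part of the gene each of them matches was not analysed here.

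In the GFP-RhoGDI2 line, IRF9 and SAMD9 rose, IFI44, DDX60 and HERC6 fell, and the other 23 genes tested were not called. IRF9 is the DNA-binding subunit of ISGF3, and SAMD9 encodes an antiviral protein that also restrains cell growth. IFI44 and HERC6 are genes induced by interferon, and DDX60 encodes a helicase linked to RIG-I signalling. The 2 higher genes are 7.14% of the 28 tested, where 4.83% of all 12123 genes tested were called higher. The 3 lower genes are 10.7%, where 3.35% of all genes were called lower. The differences of the 28 genes ran from -0.81 to 0.72 with a median of -0.13, against a median of -0.013 over all genes tested. Of the 28, 20 had a difference below 0 (71.4%, against 52.6% of all genes tested). Both GFP-RhoGDI2 arrays lay below both GFP arrays in 11 of the 28 genes (39.3%, against 29% of all genes tested), and above them in 3 (10.7%, against 25.6%). Over all genes, the smallest absolute difference that was called was 0.431. The genes of the interferon set that were not called had adjusted p-values of 0.0698 and above.

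**Figure D1:**
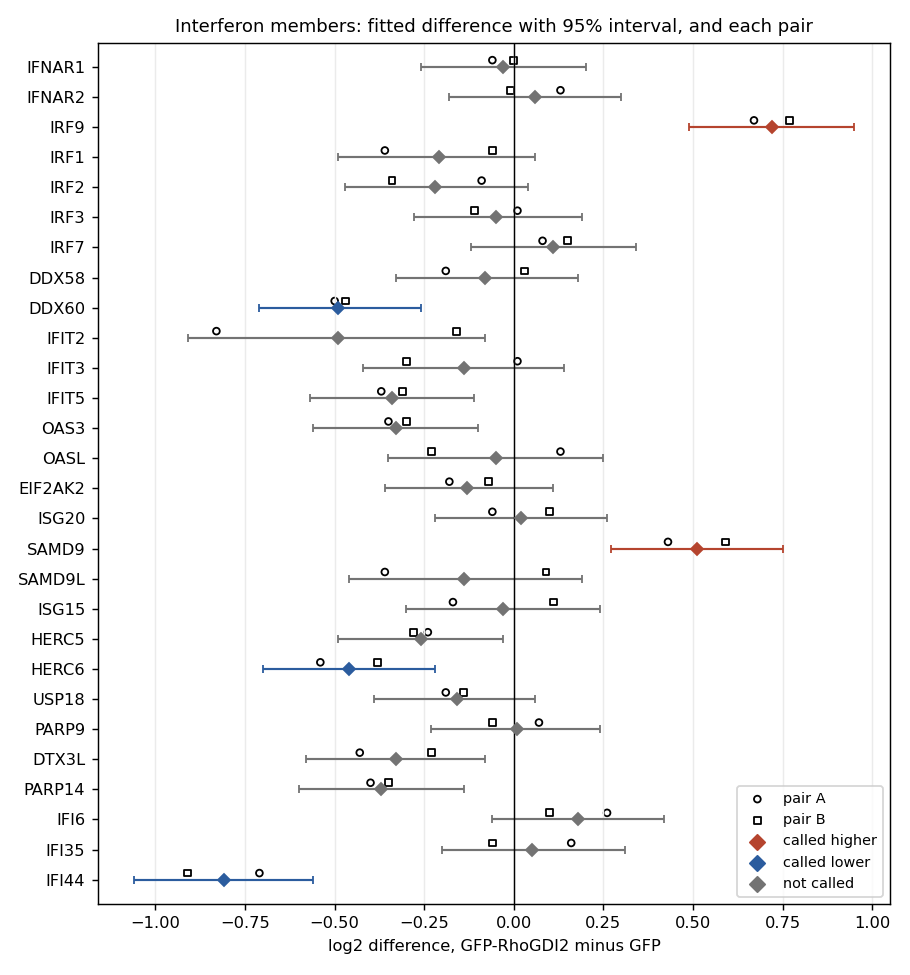
Log2 difference, GFP-RhoGDI2 minus GFP, for the 28 genes tested. Diamonds are the limma estimate with its 95% interval, coloured where called, and open circles and squares are the differences within preparations A and B. IRF9 (0.72) and SAMD9 (0.51) stand to the right and IFI44 (-0.81), DDX60 (-0.49) and HERC6 (-0.46) to the left, with both preparations of each on the same side of 0.

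IRF9 read 6.31 and 6.60 in GFP cells and 6.97 and 7.37 in GFP-RhoGDI2 cells. The groups did not overlap, and in each group preparation B read higher than A. Preparation A gave a difference of 0.67 and B one of 0.77, and the fit gave 0.72 (SE 0.094, limma adjusted p = 0.0148), a 1.65-fold rise. In RNA from whole cultures, a change in every cell and a change in the share of cells that express a gene cannot be told apart, and fewer cells cannot be told from less RNA per cell. The receptor subunit genes upstream of it were not called. IFNAR1 read 7.97 and 7.88 in GFP and 7.91 and 7.89 in GFP-RhoGDI2 cells, a difference of -0.03 with a 95% interval from -0.26 to 0.20 (adjusted p = 0.870). IFNAR2 read 8.75 and 8.82 in GFP and 8.88 and 8.80 in GFP-RhoGDI2 cells, a difference of 0.06 with an interval from -0.18 to 0.30 (adjusted p = 0.754). For both receptor genes the arrays of the groups overlapped. Without the preparation block the call of IRF9 was lost at the same difference (adjusted p = 0.0604), and with any 1 of the 4 arrays left out and no block it was lost too, at differences of 0.52 to 0.91 (adjusted p = 0.0503 to 0.228).

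The other interferon regulatory factors were not called. IRF1, an activator that interferon itself induces, read 6.57 and 6.37 in GFP and 6.21 and 6.31 in GFP-RhoGDI2 cells, a difference of -0.21 (SE 0.111, adjusted p = 0.290). IRF2, which competes with IRF1 for DNA, differed by -0.22 (adjusted p = 0.257). IRF3 and IRF7, which switch on the interferon genes after phosphorylation, differed by -0.05 (adjusted p = 0.787) and 0.11 (adjusted p = 0.494).

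Among the RNA sensors and their partners, DDX60 fell and DDX58 was not called. DDX60 read 5.78 and 6.20 in GFP and 5.28 and 5.73 in GFP-RhoGDI2 cells. Preparation B read higher than A in both groups, so the groups separate narrowly, while the difference within a preparation was -0.50 in A and -0.47 in B. The fitted difference was -0.49 (SE 0.092, adjusted p = 0.0378), a 1.40-fold fall. The call rests on the block: without it the adjusted p was 0.207, and with 1 array left out and no block the difference ran from -0.26 (without GFP-RhoGDI2 A) and -0.28 (without GFP B) to -0.71, with no call. With no filter on low values the adjusted p was 0.0745. DDX58, whose helicase recognises viral RNA ends, read 5.98 and 5.85 in GFP and 5.80 and 5.88 in GFP-RhoGDI2 cells, a difference of -0.08 (adjusted p = 0.685). IFIH1 and DHX58, which encode the related sensors MDA5 and LGP2, lay below the filter level.

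None of the IFIT genes was called, and the 3 tested differed by -0.49 to -0.14. IFIT proteins bind foreign RNA and block its translation. IFIT5 read 7.99 and 7.82 in GFP and 7.62 and 7.52 in GFP-RhoGDI2 cells, a difference of -0.34 (SE 0.093, adjusted p = 0.0872). Its groups did not overlap, and the pairs gave -0.37 and -0.31. IFIT2 read 5.31 and 5.03 in GFP and 4.48 and 4.87 in GFP-RhoGDI2 cells. Its difference of -0.49 was as large as that of DDX60, but the pairs gave -0.83 and -0.16. Its SE of 0.168 was therefore the largest among the 28 genes (limma adjusted p = 0.136). The other IFIT2 probe set, below the filter level, went the other way. That one read 2.99 and 2.87 in GFP and 3.24 and 3.20 in GFP-RhoGDI2 cells. IFIT3 differed by -0.14 (adjusted p = 0.469). Its other probe set read 5.31 and 5.30 in GFP and 4.85 and 5.12 in GFP-RhoGDI2 cells. That difference of -0.31 was not called (limma adjusted p = 0.141). IFIT5 was called with an intensity trend in the prior variance (adjusted p = 0.0228), with the filter at the upper quartile (0.0190) and with its probe sets averaged (0.0260).

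Among the oligoadenylate synthetases, which make the second messenger that activates RNase L, and the kinase gene EIF2AK2, whose product PKR halts translation, 0 of 3 tested genes were called. Of them, 1 had an unadjusted p under 0.05, which was OAS3, the gene with a called second probe set. OAS3 read 8.59 and 8.32 in GFP and 8.24 and 8.02 in GFP-RhoGDI2 cells with its main probe set, a difference of -0.33 (SE 0.092, adjusted p = 0.0914). It was called lower with an intensity trend, with the filter at the upper quartile and with probe sets averaged. EIF2AK2 differed by -0.13 (adjusted p = 0.443) and OASL, an OAS relative without synthetase activity, by -0.05 (adjusted p = 0.829). OAS1 and OAS2 lay below the filter level.

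SAMD9 was the one gene called among the restriction factors. It read 5.61 and 5.76 in GFP and 6.04 and 6.34 in GFP-RhoGDI2 cells, with no overlap. The pairs gave 0.43 and 0.59, and the fit gave 0.51 (SE 0.097, adjusted p = 0.0386), a 1.42-fold rise. Its other probe set, at 4.65 and 5.34 in GFP and 5.37 and 5.77 in GFP-RhoGDI2 cells, was called as well, with a difference of 0.57 (adjusted p = 0.0396). For the main probe set, neither the fit without the block (adjusted p = 0.0889) nor that with no filter on low values (0.0717) called it, and the call was also lost with any 1 array left out and no block, at differences of 0.36 to 0.66 (adjusted p = 0.0992 to 0.322). SAMD9L, its paralogue and neighbour in the genome, read 5.11 and 5.15 in GFP and 4.75 and 5.24 in GFP-RhoGDI2 cells, a difference of -0.14 with an interval from -0.46 to 0.19 (adjusted p = 0.556). ISG20, which encodes an RNA exonuclease, differed by 0.02 (adjusted p = 0.930).

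In the ISG15 pathway HERC6 fell, and the 4 genes tested all had differences below 0, as had 52.6% of all genes tested. ISG15 is a small ubiquitin-like protein that HERC5 attaches to other proteins and USP18 removes. HERC6, a relative of HERC5, read 5.78 and 5.86 in GFP and 5.24 and 5.48 in GFP-RhoGDI2 cells, so the groups did not overlap. Its pairs gave -0.54 and -0.38, and the fit -0.46 (SE 0.098), a 1.38-fold fall whose adjusted p of 0.0491 is just under the threshold. The call was lost without the block (adjusted p = 0.0873), with no filter (0.0953), after quantile renormalization (0.0503) and with any 1 array left out and no block, at -0.58 to -0.34 (adjusted p = 0.128 to 0.305). HERC5 read 7.39 and 7.45 in GFP and 7.15 and 7.18 in GFP-RhoGDI2 cells, a difference of -0.26 that was not called (SE 0.092, adjusted p = 0.148). It was called with the filter at the upper quartile and with probe sets averaged by gene. HERC5 has 1 probe set, so the averaged setting changed its filter, prior and adjustment but not its values. ISG15 itself differed by -0.03 (adjusted p = 0.885) and USP18, which also restrains signalling at IFNAR2, by -0.16 (adjusted p = 0.319). In ISG15 and USP18 the groups overlapped, and the pairs of ISG15 gave -0.17 and 0.11.

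DTX3L and PARP9 encode a ubiquitin ligase and its ADP-ribosyltransferase partner, and PARP14 is a related ADP-ribosyltransferase. None of the 3 genes was called. PARP14 read 6.59 and 6.41 in GFP and 6.19 and 6.06 in GFP-RhoGDI2 cells, a difference of -0.37 (SE 0.092) with the lowest adjusted p among the uncalled genes of the set, 0.0698. DTX3L read 8.65 and 8.54 in GFP and 8.22 and 8.30 in GFP-RhoGDI2 cells, a difference of -0.33 (SE 0.101, adjusted p = 0.108). In both genes the groups did not overlap. PARP9 differed by 0.01 (adjusted p = 0.969), and its other probe set by -0.25 (limma adjusted p = 0.303). With an intensity trend PARP14 and DTX3L were called (adjusted p = 0.0374 and 0.0168), as they were with probe sets averaged by gene (0.00645 and 0.0132), and DTX3L also above the upper quartile (0.0278). DTX3L has 1 probe set, so its values were the same in the averaged setting.

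IFI44 had the largest absolute difference among the 28 genes. It read 6.96 and 7.23 in GFP and 6.25 and 6.32 in GFP-RhoGDI2 cells, so both GFP-RhoGDI2 arrays lay well below both GFP arrays. The pairs gave -0.71 and -0.91, and the fit -0.81 (SE 0.101, adjusted p = 0.0129), a 1.75-fold fall. Without the block the call was kept (adjusted p = 0.0180), and with an array left out and no block it was kept without GFP A (-0.94, adjusted p = 0.0141) and without GFP B (-0.67, 0.0486) and lost without GFP-RhoGDI2 A (-0.77, 0.0923) and without GFP-RhoGDI2 B (-0.84, 0.0832). Its main probe set is of the class that can match several transcripts, and the other one lay below the filter level. IFI6, which encodes a membrane protein that limits cell death, read 4.52 and 4.64 in GFP and 4.78 and 4.74 in GFP-RhoGDI2 cells, near the filter level throughout, and differed by 0.18 (adjusted p = 0.305). IFI35 differed by 0.05 (adjusted p = 0.793).

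**Figure D2:**
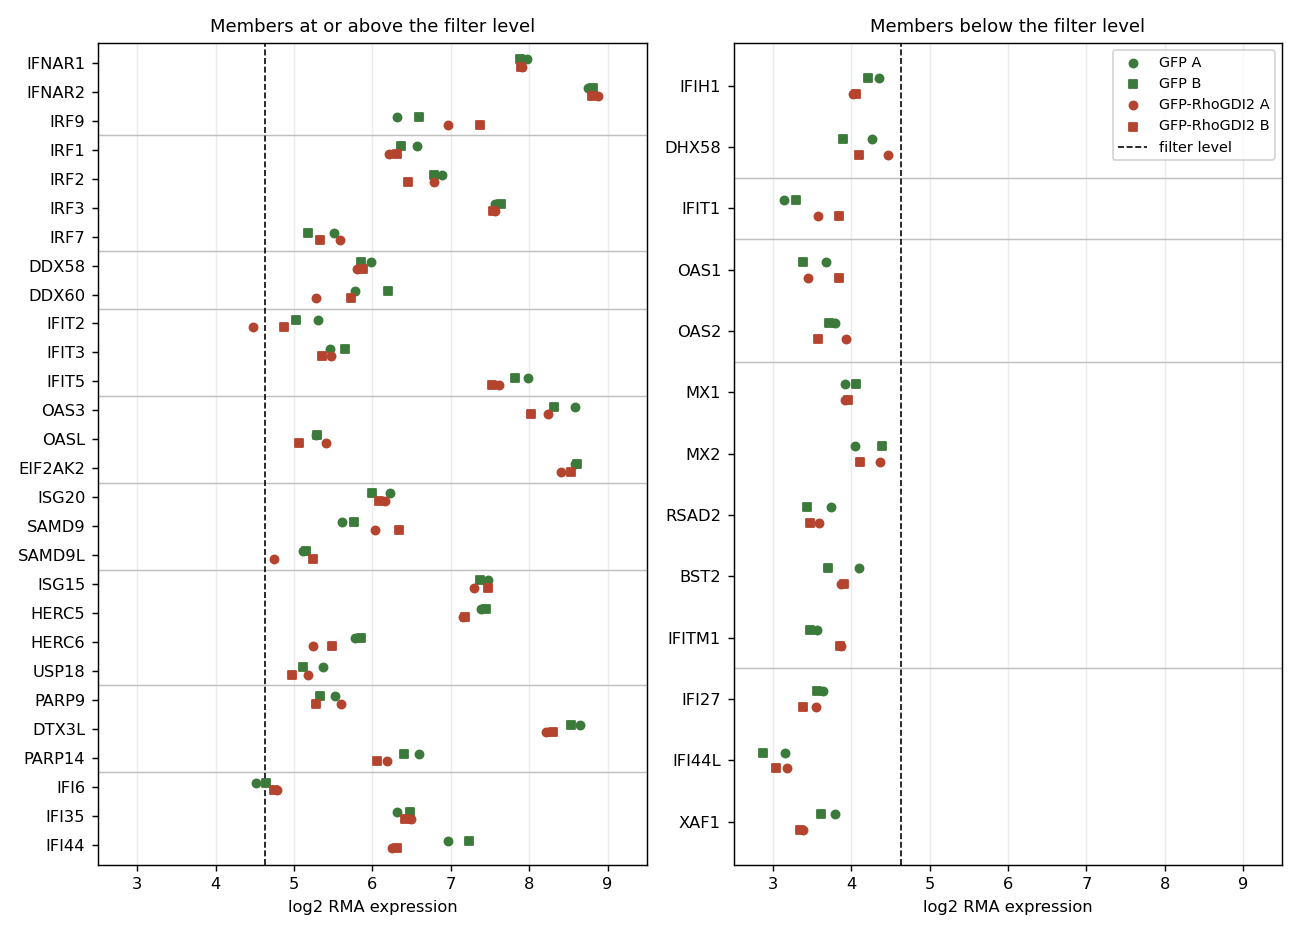
Log2 RMA expression of the 28 genes tested (left) and the 13 below the filter level (right), by array, with GFP in green and GFP-RhoGDI2 in red, circles for preparation A and squares for B. The dashed line is the filter level of 4.637, and grey lines part the roles. The green and red points of IRF9, SAMD9, IFI44, DDX60 and HERC6 do not overlap, and the genes on the right run from 2.88 to 4.47.

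The genes below the filter include several that are widely used as readouts of an interferon response. These 13 genes are IFIH1, DHX58, IFIT1, OAS1, OAS2, MX1, MX2, RSAD2, BST2, IFITM1, IFI27, IFI44L and XAF1, and their values ran from 2.88 to 4.47 over the 4 arrays. No detection calls were used, so whether these genes were above background is not known. MX1, encoding an antiviral GTPase, read 3.92 and 4.06 in GFP and 3.92 and 3.96 in GFP-RhoGDI2 cells. IFI44L, the neighbour and paralogue of IFI44, read 3.16 and 2.88 in GFP and 3.18 and 3.04 in GFP-RhoGDI2 cells. RSAD2, the viperin gene, read 3.74 and 3.44 in GFP and 3.59 and 3.47 in GFP-RhoGDI2 cells. In these genes the groups overlapped. IFIT1 read 3.14 and 3.29 in GFP and 3.57 and 3.85 in GFP-RhoGDI2 cells, and IFITM1, which blocks viral fusion, read 3.56 and 3.47 against 3.87 and 3.86; both were higher on both GFP-RhoGDI2 arrays, at levels not shown to be above background. XAF1, linked to apoptosis, read 3.79 and 3.62 in GFP and 3.39 and 3.34 in GFP-RhoGDI2 cells. IFIH1 read 4.35 and 4.22 against 4.02 and 4.06, and IFI27 read 3.64 and 3.56 against 3.55 and 3.38. XAF1, IFIH1 and IFI27 were lower on both GFP-RhoGDI2 arrays, again at levels not shown to be above background. With no filter all 41 genes were tested, and of these 13 none was called.

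Probe sets that match the same gene are given separately here, since some gave unlike values. Of the 41 genes, 22 had several probe sets and 11 had several that were tested. In 5 of the 11 all tested probe sets had differences of the same sign. Over the 43 probe sets of the interferon genes tested, 3 were called higher (IRF9 and both of SAMD9), where 4.63% of all probe sets were, and 4 lower, where 3.01% were. The fourth of those is a dimmer OAS3 probe set, which read 5.90 and 5.53 in GFP and 5.08 and 4.71 in GFP-RhoGDI2 cells. The pairs gave -0.82 and -0.83, and the fit -0.82 (SE 0.092, adjusted p = 0.0091), against -0.33 for the main OAS3 probe set. For IFNAR1, 2 probe sets gave -0.03 and -0.02 while a dimmer one read 4.85 and 5.14 in GFP and 5.43 and 5.45 in GFP-RhoGDI2 cells, a difference of 0.44 that was not called (adjusted p = 0.0689). An IFNAR2 probe set went the other way, with 6.64 and 6.91 in GFP and 6.34 and 6.52 in GFP-RhoGDI2 cells and a difference of -0.34 (adjusted p = 0.0867). A dimmer DDX58 probe set differed by 0.34 against -0.08 for the main one. Which transcripts each probe set matches was not analysed here.

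**Figure D3:**
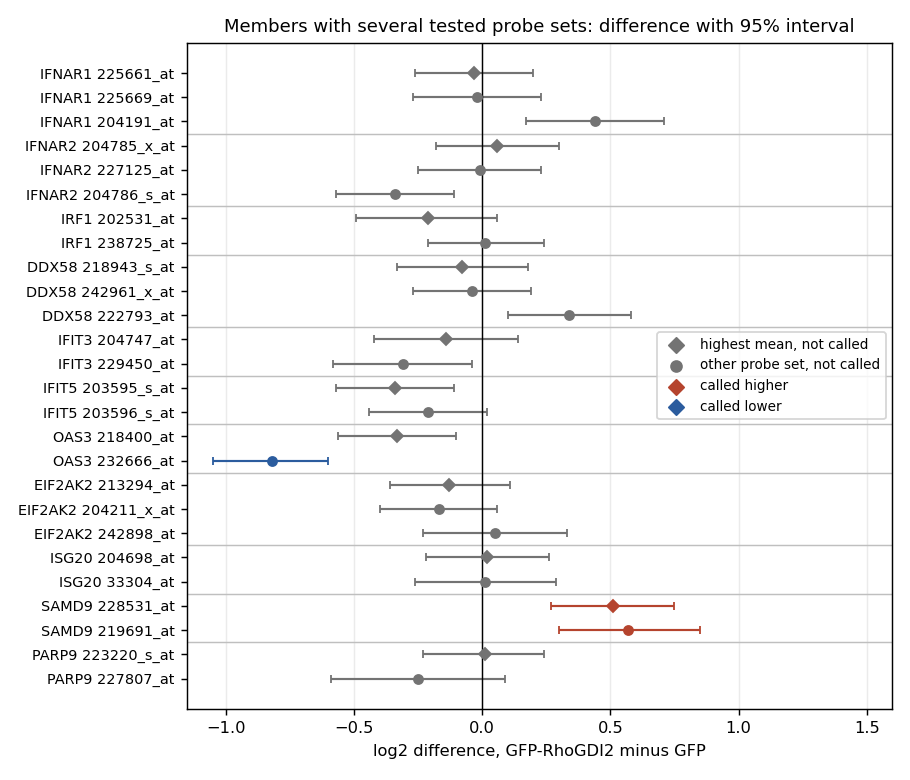
Log2 difference, GFP-RhoGDI2 minus GFP, with its 95% interval for each tested probe set of the 11 genes with several. Diamonds mark the probe set with the highest mean of its gene and circles the others. Both SAMD9 probe sets lie to the right (0.51 and 0.57), and the OAS3 probe sets lie to the left at -0.33 and -0.82.

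Several of these genes sit side by side in the genome. By the RefSeq gene order 9 pairs of the 41 genes are adjacent protein-coding genes, and both genes were tested in 4 pairs. On chromosome 7, SAMD9 rose by 0.51 while SAMD9L stood at -0.14. On chromosome 4, HERC6 fell by 0.46 and HERC5 stood at -0.26. IFIT2 and IFIT3 on chromosome 10 stood at -0.49 and -0.14, and PARP9 and DTX3L on chromosome 3 at 0.01 and -0.33. Whether the genes of a pair differed from each other was not tested.

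The promoters of the 5 called genes are shown so that the letters before genes that rose and genes that fell can be read side by side. Each is the 250 bases before the transcription start in RefSeq (GRCh38.p14), 5′ to 3′ on the gene's strand. IFI44 has 2 starts there, and the 5′-most one was used. The ISRE was searched as 2 copies of GAAA with any 2 bases between them, which on the other strand are 2 copies of TTTC. The interferon-gamma-activated sequence, called GAS, was searched as TTCNNNGAA, which reads the same on both strands. Capitals mark these matches: a GAS match in IRF9, an ISRE match each in SAMD9 and IFI44, and in DDX60 a GAS match followed by 2 ISRE matches. HERC6 holds neither in this window.
IRF9 (chr14:24161015-24161264, plus strand): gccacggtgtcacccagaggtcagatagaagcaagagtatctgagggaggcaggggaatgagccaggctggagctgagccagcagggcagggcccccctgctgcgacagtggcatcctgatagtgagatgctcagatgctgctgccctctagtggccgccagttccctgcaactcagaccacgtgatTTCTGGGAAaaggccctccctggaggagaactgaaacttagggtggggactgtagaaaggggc
SAMD9 (chr7:93117980-93118229, minus strand): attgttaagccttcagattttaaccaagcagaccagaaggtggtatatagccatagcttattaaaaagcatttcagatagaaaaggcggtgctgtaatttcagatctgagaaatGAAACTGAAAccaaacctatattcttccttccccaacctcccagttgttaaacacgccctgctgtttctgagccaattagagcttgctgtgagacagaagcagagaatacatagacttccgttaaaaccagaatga
IFI44 (chr1:78649539-78649788, plus strand): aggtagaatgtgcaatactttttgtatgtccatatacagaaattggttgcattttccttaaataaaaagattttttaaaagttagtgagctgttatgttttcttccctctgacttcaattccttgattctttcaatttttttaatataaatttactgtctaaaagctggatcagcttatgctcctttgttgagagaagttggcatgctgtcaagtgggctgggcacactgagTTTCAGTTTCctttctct
DDX60 (chr4:168318753-168319002, minus strand): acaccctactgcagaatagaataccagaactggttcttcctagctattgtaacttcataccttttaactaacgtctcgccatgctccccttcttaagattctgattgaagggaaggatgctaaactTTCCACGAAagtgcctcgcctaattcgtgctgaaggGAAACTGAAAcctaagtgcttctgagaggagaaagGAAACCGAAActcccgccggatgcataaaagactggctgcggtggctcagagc
HERC6 (chr4:88378602-88378851, plus strand): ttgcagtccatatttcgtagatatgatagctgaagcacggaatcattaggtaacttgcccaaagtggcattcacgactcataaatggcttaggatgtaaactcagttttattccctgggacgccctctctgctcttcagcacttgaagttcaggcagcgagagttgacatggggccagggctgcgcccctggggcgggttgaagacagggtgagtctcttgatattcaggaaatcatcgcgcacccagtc

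Counted back from the start site, the GAS match of IRF9 begins at base 63 and the ISRE match of SAMD9 at base 136. The ISRE match of IFI44 begins at base 18, and those of DDX60 at bases 88 and 53, with its GAS match at base 124. Before the other IFI44 start an ISRE match begins at base 60. Both a gene that rose, SAMD9, and genes that fell, IFI44 and DDX60, carry the ISRE letters. Of the 41 genes, 31 had a promoter in the RefSeq table, and 20 of the 31 (64.5%) held an ISRE match, against 3.71% of 27305 genes with a promoter. GAS matches stood in 10 of the 31 (32.3%), against 8.09% of all. In BST2, IFI27 and MX1 a GAS match overlaps an ISRE match. An ISRE match stood in 12 of the 21 tested genes with a promoter and in 8 of the 10 below the filter. A match is a description of letters in this window, not a site shown to be bound.

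Between the preparations, 0 of the 28 genes were called in limma, as were 0% of all genes tested. At an unadjusted p under 0.05 there were 5 of the 28, and 1217 of all genes (10%). DDX60 had the highest value, 0.43 higher in B, and IRF9 was 0.34 higher in B (limma adjusted p = 0.369 and 0.387). With probe sets averaged by gene, DDX60 and SAMD9 were called between the preparations. DDX60 has 1 probe set, so its values were unchanged in that setting.

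Outside the set, genes of the same pathway were called in 4 cases, all lower. Of 93 further genes of interferon signalling, 84 were found and 54 tested, with 0 called higher, against 4.83% of all genes tested, 4 called lower (7.41%, against 3.35%) and a median difference of -0.02. At an unadjusted p under 0.05, 3 were higher (5.56%, against 13.1% of all genes tested) and 11 lower (20.4%, against 14%). GBP3, a guanylate-binding GTPase gene induced by interferon, read 6.53 and 6.73 in GFP and 5.41 and 5.89 in GFP-RhoGDI2 cells, a difference of -0.98 (SE 0.109, adjusted p = 0.00908). SP110, which encodes a nuclear body protein, read 6.59 and 6.80 in GFP and 5.91 and 6.15 in GFP-RhoGDI2 cells, a difference of -0.66 (adjusted p = 0.0172). TRIM14, an adaptor of mitochondrial antiviral signalling, read 9.45 and 9.39 in GFP and 8.81 and 8.77 in GFP-RhoGDI2 cells, a difference of -0.63 (adjusted p = 0.0193). TBK1, the kinase that phosphorylates IRF3, read 9.60 and 9.55 in GFP and 9.14 and 9.13 in GFP-RhoGDI2 cells, a difference of -0.43 (adjusted p = 0.0493). In all 4 genes the groups did not overlap. Without the block GBP3, SP110 and TRIM14 were called and TBK1 was not (adjusted p = 0.0647), and TBK1 was not called with no filter (0.102) or after quantile renormalization (0.0562) either. With probe sets averaged by gene, the difference was -0.38 for SP110 and -0.35 for TRIM14, both still called. With an array left out and no block, GBP3 lost its call without GFP B (-0.87, adjusted p = 0.0660) and without GFP-RhoGDI2 A (-0.73, 0.0887), SP110 kept it only without GFP A, and TRIM14 and TBK1 lost it each time.

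By role, the further receptors, kinases and inhibitors gave 0 calls in limma among 12 tested, with 1 at an unadjusted p under 0.05. That gene was JAK1, the kinase bound to IFNAR2, with a mean of 10.95 ± 0.06 (SD, n = 2) in GFP and 11.44 ± 0.24 (SD, n = 2) in GFP-RhoGDI2 cells. Its groups did not overlap, with 0.28 in A and 0.70 in B, and the difference of 0.49 was not called (SE 0.128, adjusted p = 0.0791), and it was called with an intensity trend, with the upper quartile as filter and with probe sets averaged. Sensing and induction genes gave 0 higher and 1 lower (TBK1) of 13 tested (7.69%). Further interferon-stimulated genes gave 0 higher and 3 lower of 29 (10.3%). Of all genes tested, 4.83% were called higher and 3.35% lower. With so few genes in each list, these shares are imprecise. None of the 18 interferon genes found reached the filter level: their values ran from 2.64 to 4.32, which bears on the interferon mRNAs of these cells only and not on interferon in the medium.

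**Figure D4:**
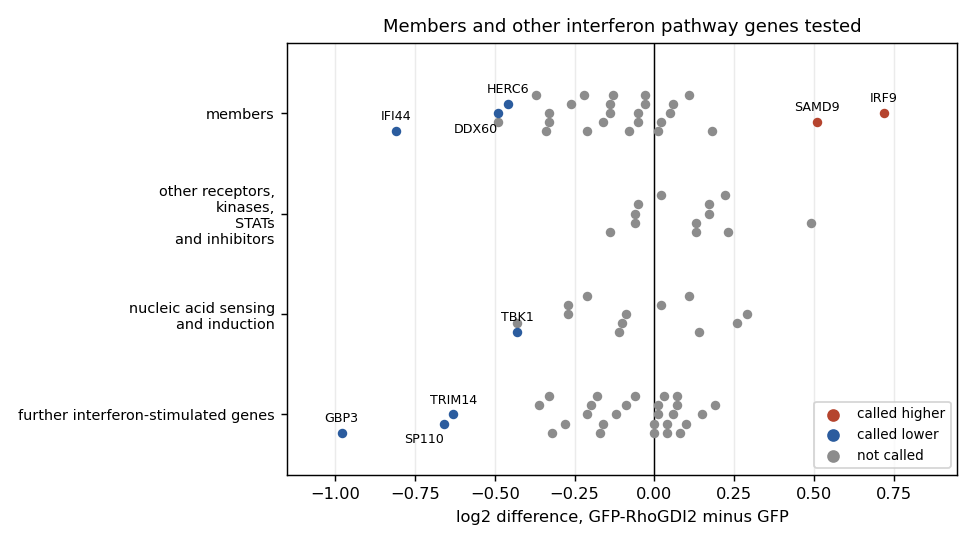
Log2 difference, GFP-RhoGDI2 minus GFP, of each tested gene, for the 28 genes of the set (members) and the further pathway genes by role; vertical spread within a row only separates points. Called genes are named: IRF9 and SAMD9 are higher, and IFI44, DDX60, HERC6, TBK1, GBP3, SP110 and TRIM14 are lower.

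Most markers of leukocytes, fibroblasts, endothelium and urothelium lay below the filter. Of 12 leukocyte markers found, 11 lay below it, PTPRC (3.09 to 3.59 over the 4 arrays) and CLEC4C, a marker of interferon-producing dendritic cells (3.04 to 3.12), among them. CD4 was the exception at 4.70 to 4.82, and 0 leukocyte markers were called in limma, with 0 at an unadjusted p under 0.05. Of the urothelial markers 7 of 8 lay below the filter, the uroplakin genes UPK1A, UPK1B, UPK2, UPK3A and UPK3B included, and GATA3 passed it at 4.94 to 5.43. Below the filter, UPK1A read 4.18 and 4.03 in GFP and 4.95 and 4.55 in GFP-RhoGDI2 cells, and UPK3B read 4.31 and 4.51 against 4.59 and 4.75. In both, the GFP-RhoGDI2 arrays lay above the GFP arrays. KRT5 went the other way, with 4.56 and 4.73 in GFP and 4.47 and 4.48 in GFP-RhoGDI2 cells. In UPK1B, UPK2, UPK3A and KRT20 the groups overlapped. None of these differences was tested. GATA3, which was tested, was not called (-0.20). Of 8 fibroblast and endothelial markers, 7 lay below the filter, and PECAM1 was not called (-0.07). The keratin genes KRT8 and KRT18, of simple epithelium, were tested and fell by 1.23 and 0.59, the mesenchymal cadherin gene CDH2 rose by 0.68, VIM was not called (0.18), and EPCAM and CDH1 lay below the filter. The part of these epithelial markers in the interferon results was not tested.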

How the data were processed

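Expression was deposited as log2 values, 1 for each probe set of the Affymetrix HG-U133 Plus 2.0 array. Per the submitters' processing notes the authors used RMA, version not given in the sources used here. Array medians of 4.6243 to 4.6474 show that the arrays were already at a common level. No detection calls were used, and the 4 arrays limit the precision. Per the labels, 6 µg of total RNA were used per array.

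Of 54675 probe sets, 62 controls were left out; 41091 of the rest name 1 gene, 1801 several, and 11721 none. Probe sets with a mean at or above the median, 4.637, were tested (27307 probe sets, 12123 genes). limma 3.58.1 in R 4.3.3 (lmFit, eBayes) was fitted with preparation as a block, because the labels pair A with A and B with B; 1 residual degree of freedom was joined by 4.71 prior ones (prior SD 0.101), so the smallest SEs come mainly from the prior. Across probe sets, the preparation difference in GFP cells correlated with that in GFP-RhoGDI2 cells at r = 0.264. P-values were Benjamini-Hochberg adjusted over all probe sets tested.

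The genes and lists were chosen with earlier results of these data known. Per-array values are given for called genes, the interferon receptors and IRF9, and the 4 uncalled genes with the largest differences, with others added after their values were seen. Of each pathway list at most 4 called genes are named; JAK1 was added after its values were seen.

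Other settings tried were no block, each array left out with no block, no filter or one at the upper quartile, an intensity trend, probe sets averaged by gene, leaving out probe sets ending in _s_at or _x_at, and quantile renormalization. Averaging by gene also changes the filter level, the prior and the adjustment for every gene, including those with a single probe set.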

Additional observations from a re-analysis of the deposited data

How the results depend on the processing

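Of the interferon genes, 2 were higher in the main analysis. This became 0 without the preparation block (no replicate block) and 1 with no filter. With the filter at the upper quartile 0 were higher, since that filter removes both IRF9 and SAMD9. The 3 lower became 1 without the block, with no filter and without probe sets ending in _s_at or _x_at, 7 with an intensity trend and with the mean of probe sets, and 0 to 1 with each array left out. With the filter at the upper quartile 4 were lower (DTX3L, HERC5, IFIT5 and OAS3), none of them among the 3, which that filter removes. Quantile renormalization left 2 higher and 2 lower.

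Of the other pathway genes, 0 were higher in the main analysis; there were 3 above the upper quartile, 2 with an intensity trend, 2 with the mean of probe sets, and 0 to 0 with each array left out. The 4 lower became 8 above the upper quartile, 10 with an intensity trend, 10 with the mean of probe sets, 2 without _s_at or _x_at probe sets, and 0 to 2 with each array left out. Between preparations, 0 genes of the set became 2 with the mean of probe sets. Fits with an array left out have fewer samples and no block; otherwise the cause was not tested.

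IFNAR1 and IFNAR2, uncalled throughout, changed sign: IFNAR1 ran from -0.08 to 0.02 with each array left out and was at 0.14 with the mean of probe sets, IFNAR2 at -0.10 with that mean and at -0.01 without _s_at or _x_at probe sets. Every other gene with alternatives (IRF9, SAMD9, IFI44, DDX60, HERC6, IFIT2, IFIT5, PARP14, DTX3L, TBK1, GBP3, SP110, TRIM14) kept its sign in each. In all of these genes the groups did not overlap, so leaving out an array could not change the sign. The settings for block, filter and trend do not alter the estimate. Only the remaining settings could have shown a change of sign. Genes whose probe sets a setting removes have no value there, such as IFI44 and DDX60 without _s_at probe sets. In no case was an array's background measured, so levels near the filter have the least certain differences.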
